A study of Sus scrofa with 44 samples.

Results

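The genes described here are NEFL, NEFM, NEFH, INA, PRPH, STMN2, GAP43 and TUBB3, a set of 8 neuronal genes read as a sign of neural tissue in pig prenatal muscle. They were chosen by gene symbol, and of these 8 genes 7 had values among the 22427 Ensembl genes of each expression file. NEFL, INA, PRPH, STMN2, GAP43 and TUBB3 were matched by symbol. NEFM was matched by position, because the peaks listed for ENSSSCG00000009648 lay in the RefSeq gene NEFM, and NEFH was not matched and was not analysed here. The set was chosen for its level in the earliest samples, and NEFL for its difference between the first and the last stage, so the levels below are a description and carry no test.

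The series holds 44 samples, profiled as input RNA and as RNA pulled down with an antibody against N6-methyladenosine (m6A), a methyl mark on adenosines of messenger RNA. Of these, 36 were longissimus dorsi, the long muscle of the back, taken from fetal pigs on days 33, 40, 50, 60, 70 and 95 after mating (stages E33, E40, E50, E60, E70 and E95). Each stage had 3 input samples and 3 pulled-down samples, and all muscle RNA was rRNA-depleted. The remaining 8 were of the porcine kidney line PK15, in a polyA and an rRNA-depleted preparation. No breed, sex, litter or genetic modification was given in the labels, and nothing stated that the replicates of a stage came from separate animals, so p-values measure only the spread between these samples, which may be technical.

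Neurofilaments are the intermediate filaments of axons. NEFL is the light subunit on which the filament is built, NEFM the medium and NEFH the heavy subunit, INA (alpha-internexin) a further subunit, and PRPH (peripherin) a related filament protein of neurons that send axons out of the brain and spinal cord. STMN2 is a regulator of microtubules in growing axons, GAP43 a protein of growth cones, and TUBB3 the beta-tubulin typical of neurons. The cell bodies of the neurons that reach muscle lie in the spinal cord and in the dorsal root ganglia, while the muscle itself holds their axons, the Schwann cells around them and the nerve endings.

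The sequence under a NEFL peak of m6A is shown because NEFL is the gene of the set with peaks at several stages, described further on. It was read from the RefSeq genome of build Sscrofa11.1 on the strand of the gene, 5′ to 3′, and capitals mark matches to DRACH, the sequence context of m6A: A, G or T, then A or G, then AC, then A, C or T. It is the E50 peak at chr14:8993169-8993319 (minus strand), which lies inside the E33 and E40 peaks and holds the E95 peak.
NEFL: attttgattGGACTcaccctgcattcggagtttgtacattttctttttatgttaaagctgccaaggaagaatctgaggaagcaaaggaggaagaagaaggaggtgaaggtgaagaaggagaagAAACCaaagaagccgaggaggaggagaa

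The NEFL sequence held 2 matches in 151 bases, and 2 on the opposite strand. Of its matches, GGACT stood at bases 10 to 14, in the first 57 bases, which RefSeq gives as intron, and AAACC stood at bases 124 to 128, in the coding part of exon 4. Of equally long windows at the centres of E33 peaks, 96.0% held a match and 22.5% held GGACT.

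Expression was given as TPM, a transcript's share of its library corrected for length, and the most abundant gene alone took 37.4% to 72.4% of each total. The sum of every file was fixed, so such a gene lowers all others. The levels were therefore also divided by a factor per library (0.305 to 2.01), set from the median ratio of 11974 genes to their means, and these are called scaled TPM. The sequencing depth was unknown, so no counting interval could be given. The labelled tissue was checked with skeletal muscle genes. Their summed scaled TPM over the 8 matched genes, among them ACTA1, DES and MYOG, was 1066 to 1228 in the E33 libraries and 15134 to 23678 in those of E95.

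NEFL (chr14:8991321-8996900, minus strand) had the highest level of the set in 15 of the 18 libraries. NEFM was higher in E70 replicate 1 and E95 replicate 3, and both were nearly equal in E95 replicate 2 (2.60 TPM of NEFL and 2.61 of NEFM). Its deposited TPM at E33 was 111, 209 and 222 in replicates 1, 2 and 3, or 93.4, 104 and 118 after scaling. It stood at 24.5, 9.62 and 23.9 TPM in the E40 libraries, 14.6, 12.8 and 4.57 TPM in those of E50, and 12.3, 19.8 and 6.88 TPM in those of E60. The E70 libraries had 2.79, 16.2 and 5.11 TPM, and the E95 libraries 2.18, 2.60 and 1.92 TPM. All 15 later libraries were below all 3 E33 libraries. In order of stage, the scaled means were 105 ± 12.2, 17.95 ± 2.57, 13.4 ± 2.78, 10.2 ± 4.94, 7.65 ± 6.35 and 3.34 ± 1.13 (SD, n = 3 for every stage). In that order, the ranges of E50 and E60, of E60 and E70 and of E70 and E95 overlapped. The ranges of E40 and E50 were apart after scaling (15.5 to 20.6 against 10.2 to 15.1) and overlapped as deposited. In bulk tissue, fewer cells or axons of a type and less RNA in each cannot be told apart.

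NEFM (chr14:8955346-8967211, plus strand) lies 24.1 kb from NEFL and was lower in level at E33. Its deposited TPM at E33 was 16.3, 52.0 and 64.8, or 13.7, 25.9 and 34.4 after scaling. In the 15 later libraries it lay between 0.859 and 11.7 TPM, all below E33. Its later course was flat. From E40 on, the scaled means in order of stage were 3.71 ± 1.13, 5.48 ± 1.87, 6.23 ± 3.70, 5.01 ± 2.43 and 3.26 ± 1.71 (SD, n = 3 for every stage), and the ranges of these stages overlapped one another. Within E60 and E70, libraries that were high in NEFL were also high in NEFM. E60 replicate 3 was the lowest of its stage in both genes, and E70 replicate 2, with 16.2 TPM of NEFL and 8.52 TPM of NEFM, the highest of its stage in both. Over all 18 libraries, the deviations of NEFL and NEFM from their stage means correlated with a Pearson r of 0.68 on log2(scaled TPM + 1). This is a description over libraries that share their scaling.

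STMN2 (chr4:56952968-57006744, minus strand) was lower from stage to stage. Its deposited TPM was 9.90, 21.5 and 18.6 at E33, 2.97, 1.60 and 6.11 at E40 and 0.901, 1.27 and 0.338 at E50. It lay between 0.211 and 0.343 TPM at E60 and at or below 0.152 TPM in the 6 libraries of E70 and E95, of which 3 listed it at 0. After scaling, the range of every stage from E33 to E70 lay below that of the stage before it, and the ranges of E70 and E95 overlapped. As deposited, E50 and E60 overlapped as well.

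GAP43 (chr13:144364314-144458136, minus strand) had a single step instead. Its deposited TPM at E33 was 3.60, 5.50 and 5.19, or 3.02, 2.74 and 2.75 after scaling, and the 15 later libraries lay between 0.144 and 0.533 after scaling. The scaled mean was 0.402 ± 0.0467 at E40 and 0.382 ± 0.143 at E95 (SD, n = 3 each), and both ranges overlapped. The difference E95 minus E40 on log2(scaled TPM + 1) was -0.03 for GAP43, -0.21 for NEFM and 0.01 for INA, against -2.15 for NEFL and -2.02 for STMN2. It was -0.39 for TUBB3 and -0.61 for PRPH. NEFL and STMN2 thus had the largest differences after E40 on this scale, where the pseudocount of 1 compresses values under 1 TPM. Between E33 and E40 the same difference was -2.49 for NEFL, -2.38 for NEFM, -3.25 for PRPH, -1.37 for STMN2 and -1.45 for GAP43.

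PRPH (chr5:15283399-15288800, plus strand) differed among the E33 libraries themselves. Its deposited TPM there was 4.15, 48.0 and 50.2, and it lay between 0 and 2.00 TPM in the 15 later libraries, 8 of which, all 3 of E95 among them, listed it at 0. INA (chr14:114227998-114240566, plus strand) was at 0.416, 5.93 and 6.48 TPM at E33 and at or below 0.791 TPM later. TUBB3, for which RefSeq held no gene model under that symbol, was at 0.712, 8.35 and 9.37 TPM at E33 and at or below 0.541 TPM later. In all 3 genes E33 replicate 1 was far below replicates 2 and 3. INA in E33 replicate 1 was inside the range of the later libraries, at 0.348 after scaling against 0 to 0.660.

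**Figure D1:**
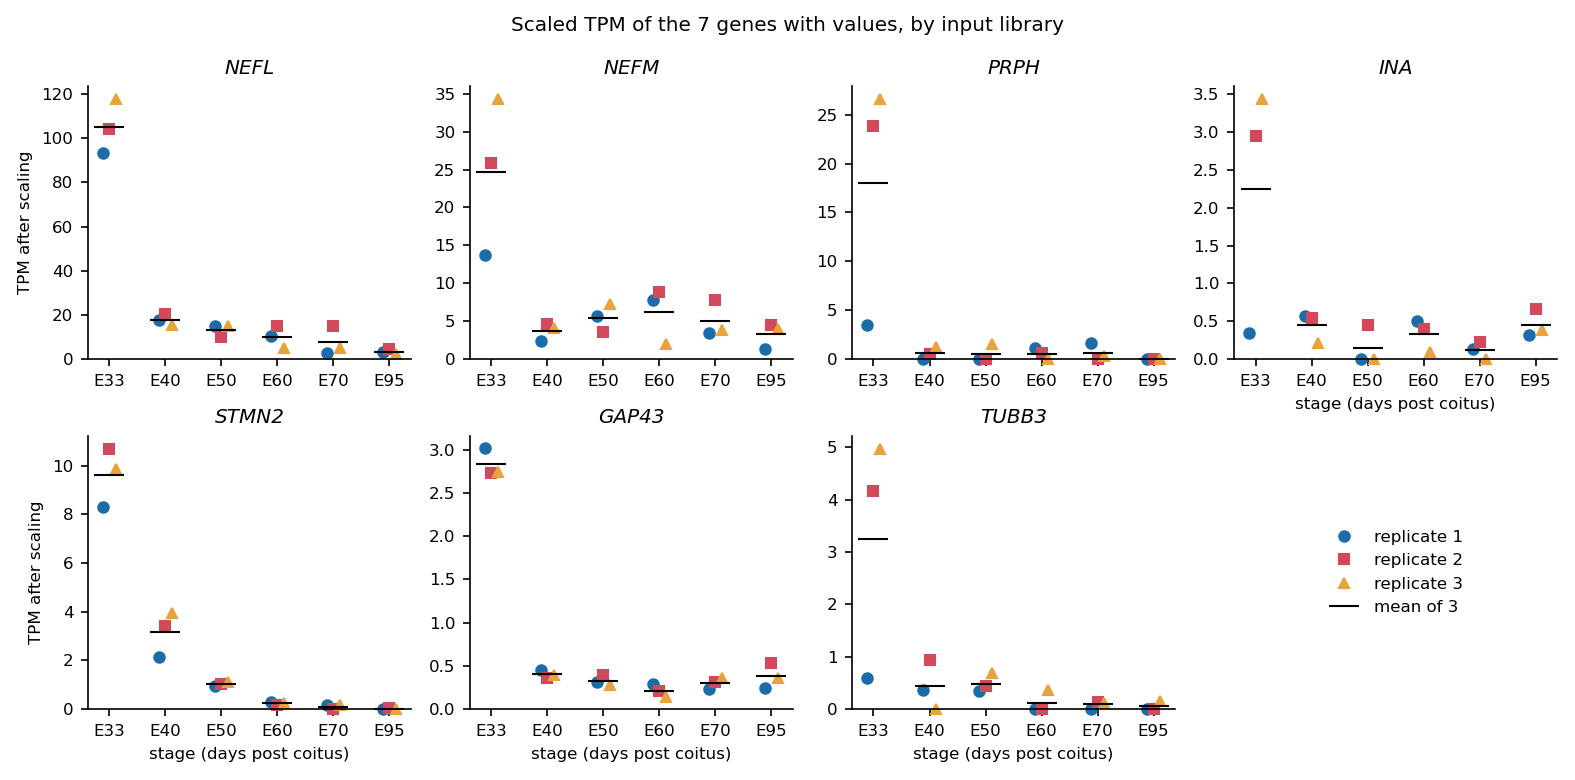
Scaled TPM of the 7 genes with values (vertical axis, its own linear range in each panel) in the 18 input libraries by stage; symbols are replicates and the black bar is the mean of 3. NEFL, STMN2 and GAP43 have all 3 E33 libraries together and above the rest, while PRPH, INA and TUBB3 have E33 replicate 1 far below replicates 2 and 3.

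Averaged over the 18 libraries, 6 of the genes reached 1 TPM, and of these NEFL, NEFM, PRPH, STMN2 and GAP43 had all E33 libraries above all later ones on both scales. TUBB3 did so as deposited, and after scaling 13 of its 15 later libraries lay below all of E33. Among all 13334 genes with such a mean, 9.47% had all 3 E33 libraries above all 15 later ones after scaling and 14.1% as deposited. Against the 3 E95 libraries alone these shares were 28.2% and 64.9%. The set was chosen for this pattern, so nothing is read from its count. INA, with a mean of 0.962 TPM, did not reach the filter. The median difference of the 7 genes, E95 minus E33, was -2.59 on log2(scaled TPM + 1), against 0.00 for all genes. As deposited it was -3.66 against -1.02, and with E33 replicate 1 as the only E33 library it was -1.88 after scaling.

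The set thus fell into 3 kinds at E33 when the replicates were set side by side. After scaling, replicates 2 and 3 were 1.11 and 1.26 times replicate 1 for NEFL, 1.29 and 1.19 times for STMN2, and 0.907 and 0.911 times for GAP43. They were 1.89 and 2.51 times replicate 1 for NEFM. They were 6.87 and 7.65 times replicate 1 for PRPH, 8.47 and 9.86 times for INA, and 6.96 and 8.33 times for TUBB3. With values as deposited, the last of these genes ran from 11.6 to 15.6 times and NEFL, STMN2 and GAP43 from 1.44 to 2.17 times.

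Several regulators of neurons were also lowest in E33 replicate 1. ISL1, a factor of motor and sensory neurons, was at 0.134, 1.14 and 2.75 scaled TPM in E33 replicates 1, 2 and 3. TLX3, a factor of sensory and spinal neurons, was listed at 0 in replicate 1 and in all 15 later libraries, and was at 1.24 and 1.80 in replicates 2 and 3. PRDM12, a factor of pain-sensing neurons, was at 0, 0.554 and 1.54, and NEUROD1, a factor of differentiating neurons, at 0, 0.311 and 2.11. Among them ELAVL3, an RNA-binding protein of neurons, was at 0.0842, 0.571 and 0.899. Of the 50 neuronal genes of the wider lists with a mean of at least 0.5 scaled TPM at E33, 6 (ELAVL3, ISL1, ISL2, NEUROD1, PRDM12 and TLX3) were over 4-fold higher in both replicates 2 and 3 than in replicate 1, and 24 were within 1.5-fold of replicate 1 in both. These limits were set after the values were seen.

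Other genes of neurons lay within 1.5-fold of E33 replicate 1 in the other E33 libraries. UCHL1, an abundant neuronal ubiquitin hydrolase, was lowest in replicate 1, at 6.61, 8.41 and 9.34 scaled TPM, CRMP1, a protein of growing axons, at 4.30, 4.20 and 4.05, and PIEZO2, the mechanically gated channel of touch neurons, at 15.3, 13.2 and 16.5. The Schwann cell genes SOX10 (8.35, 7.82 and 8.55) and ERBB3 (43.9, 41.2 and 42.5) were also level across the 3 libraries. FABP7, a gene of early glia, stood apart in another library, at 2.77, 13.0 and 1.78.

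**Figure D2:**
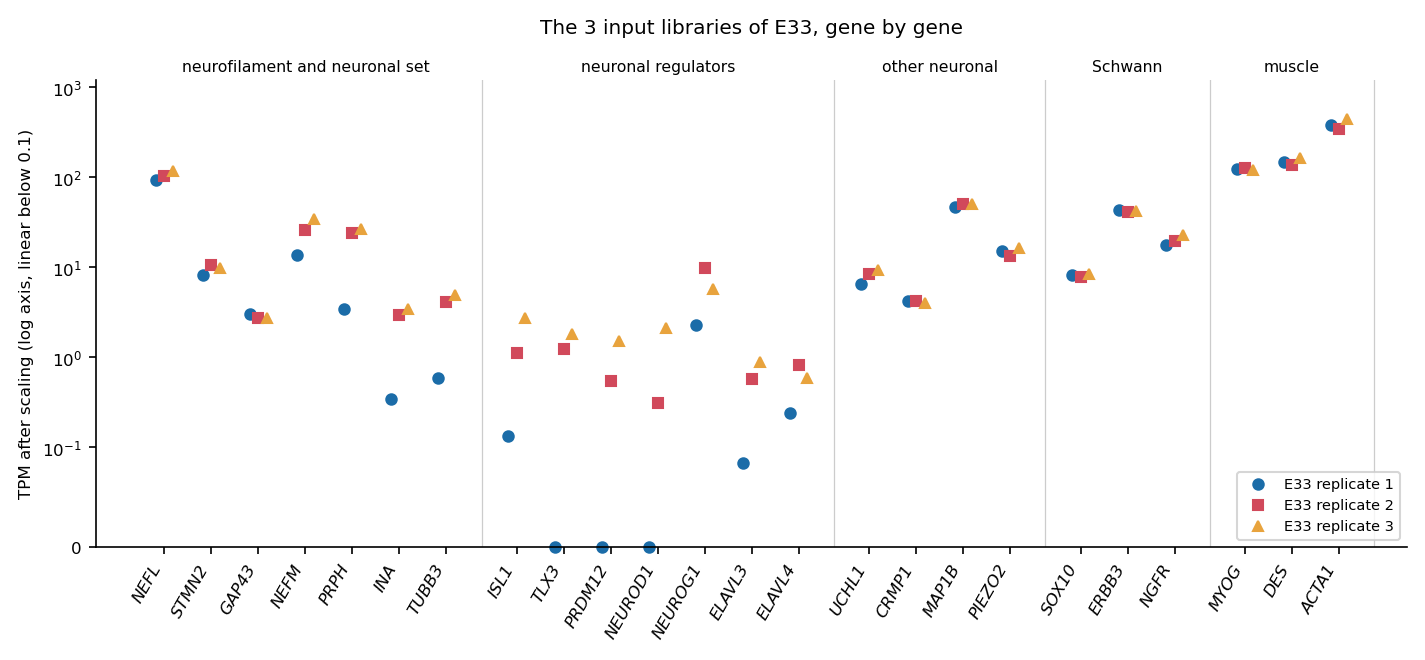
Scaled TPM (log axis, linear below 0.1) in the 3 E33 input libraries for the neurofilament and neuronal set, neuronal regulators, other neuronal genes, Schwann cell genes and muscle genes; symbols are the replicates. Replicate 1 lies 6.87 to 9.86-fold below the others in PRPH, INA and TUBB3 and is at 0 for TLX3, PRDM12 and NEUROD1, while NEFL, CRMP1, SOX10 and the muscle genes are alike in all 3.

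Among all genes, 1590 were at 1 scaled TPM or more in both E33 replicates 2 and 3 and higher there than in every later library. Of these, 21 (1.32%) were also at least 4-fold above replicate 1 in both, and 12 of the 21 had a symbol: PRPH, TUBB3 and INA of the set, ISL1 and TLX3 of the neuronal lists, TUBB4A, a further neuronal tubulin, and RXFP2, DLX2, BHLHA9, NTF4, SAMD11 and PROC. This limit too was set after the values were seen. E33 replicate 1 also differed in its composition, with 59.4% of its TPM in the single most abundant gene against 37.4% and 41.1% in replicates 2 and 3, and with 12991 genes at 1 TPM or more against 13912 and 13791. Whether this difference has a part in the gap of PRPH, INA and TUBB3 was not tested.

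Genes that mark the kind of neuron or a piece of spinal cord were then read in all libraries. The genes of cholinergic motor neurons were at or near 0: CHAT, which makes acetylcholine, reached at most 0.123 scaled TPM, the choline transporter SLC5A7 at most 0.0749, and the acetylcholine transporter SLC18A3 and the factor LHX3 were listed at 0 in all 18 libraries. The summed level of the 6 genes of that list was 0.134 to 3.05 at E33 and up to 0.891 at E60, 0.972 at E70 and 0.544 at E95. In E33 replicates 2 and 3 most of it was ISL1. MNX1, a motor neuron factor, was at 0, 0 and 0.247 at E33, at 0, 0.535 and 0.691 at E50 and at 0.777 in E60 replicate 2, and was listed at 0 in the other libraries. Of the 7 matched genes of the neural tube, OLIG2 was listed at 0 throughout and PAX6 reached at most 0.177 scaled TPM. SOX3, HES5 and FOXA2 were above 0 in 1 library each, none of them of E33. NKX2-2, a factor of ventral progenitors, was above 0 in 15 of the 18 libraries, at 0.6002, 0 and 0.740 at E33 and at up to 1.39 at E50. DBX1, a factor of spinal interneuron precursors, was the only gene of that list that passed the TPM filter, lowest at E33 (3.42 to 4.68) and higher in all later libraries (11.8 to 32.0). The summed level of 11 sensory neuron genes was 23.5 to 36.0 at E33, 10.7 to 11.4 at E40, 14.8 to 17.95 at E60, 17.1 to 19.2 at E70 and 13.7 to 15.03 at E95. PIEZO2 alone made up 13.2 to 16.5 of it at E33.

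Against this description, the test asked how other neuronal genes differed between stages. It covered 75 genes in lists of neuronal cytoskeleton, synaptic release, neuronal regulators, motor and sensory neurons and axon guidance, all outside the set, of which 72 were matched and 30 passed the TPM filter. For E95 against E33, limma called 18 of the 30 lower and 2 higher after scaling, at an adjusted p under 0.05, against 23.8% of all genes lower and 22.8% higher, or 46.7% called. Their median log2 difference was -1.02, against 0.00 for all genes. As deposited, 22 were lower and 0 higher, against 45.8% and 2.64% of all genes, or 48.5% called. When the 2 most abundant genes were left out and TPM set to its full sum again, 21 were lower and 0 higher, beside 52.0% and 8.90% of all genes. A gene that reached the filter through E33 or E95 alone is more likely to differ between them, though it need not be called. Of the 24 genes that also averaged 1 TPM or more outside E33 and E95, 14 were lower and 2 higher, beside 23.2% of all such genes lower. The other calls among the 30, namely NEUROG1, POU4F1, CNTN2 and CRMP1, were of genes below that average, and their values are given as a description. NEUROG2 and PHOX2A were below it too and were not called.

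The neuronal cytoskeleton held the most calls, with 8 of 10 genes tested lower at E95 than at E33 and 0 higher. The log2 difference was -2.90 for UCHL1 (SE 0.19, limma adjusted p 1.65e-08), -2.26 for DCX, a microtubule protein of migrating neurons (SE 0.13), and -2.17 for CRMP1 (SE 0.16), which averaged under 1 TPM outside E33 and E95. It was -1.72 for MAP1B, an axonal microtubule protein, -1.55 for KIF21B, a kinesin, -1.52 for the tubulin TUBB2B, -1.48 for DPYSL5 and -0.98 for DPYSL3, relatives of CRMP1. SNCG and STMN3 were not called, at -0.17 and -0.36. Of the 6 synaptic genes tested, 4 were lower, among them SV2A (-1.06) and RAB3A (-0.69), both of synaptic vesicles. VAMP2, a vesicle protein also found outside neurons, was called higher at 0.64 after scaling and was at -0.59 as deposited. SYP was not called, at 0.27. The summed scaled TPM of the 12 matched synaptic genes was 55.6 to 80.4 at E33 and 70.1 to 88.3 at E95. VAMP2 averaged 39.1 of it at E33 and 60.8 at E95. Among the synaptic genes below the filter, CPLX1 and SYN1 had higher means at E95 than at E33, and SNAP25, SYT1 and SLC17A6 lower ones.

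The remaining neuronal lists had fewer genes to test. Of the 3 sensory neuron genes tested, PIEZO2 was lower (-1.60), and POU4F1, a factor of sensory neurons that passed the filter through its level at E33, was at -1.58. RET, a receptor for GDNF family ligands, was called higher at 0.96 after scaling and was at -0.13 as deposited. NEUROG1, a factor of sensory neuron precursors that likewise passed through E33, was at 2.30, 9.77 and 5.73 scaled TPM at E33 and at 0 in all libraries of E95. Of the 6 axon guidance genes tested, ROBO2 (-1.19) and EPHA5 (-0.56) were lower, and CNTN2, which passed through E33, was at -1.71. L1CAM (-0.57), NRCAM (-0.26) and PLXNA4 (0.24) were not called.

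For E40 against E33 the median difference of these 30 genes was -0.35, against -0.003 for all genes. It was -1.45 for the set, which was chosen for its early level, so the sizes are not compared. Of the 30 genes, 8 were called lower and 3 higher after scaling, against 10.9% and 10.1% of all genes, or 21.0% called. As deposited 7 were lower and 0 higher, against 4.66% and 0.210% of all genes, or 4.87% called. Rescaled without the 2 most abundant genes, 11 were lower and 1 higher, beside 13.5% and 5.71% of all genes. Of the 22 genes that also averaged 1 TPM or more outside E33 and E40, 4 were lower and 2 higher, beside 10.002% of all such genes lower. Among these 4 were PIEZO2 (-1.26), KIF21B (-0.91) and ROBO2 (-0.49). NEUROG1 (-2.63), CNTN2 (-1.59), UCHL1 (-1.41) and CRMP1 (-1.30) averaged under 1 TPM outside E33 and E40 and passed the filter through those stages. Passing in this way makes a difference between E33 and E40 more likely but does not force one. ISL2, PHOX2A and POU4F1 were under the same average and were not called. UCHL1 stood at 6.61, 8.41 and 9.34 scaled TPM at E33 and at 2.17, 2.12 and 2.99 at E40, with no overlap. DCX (0.74), EPHA5 (0.54, also under 1 TPM outside these stages) and NRCAM (0.38) were called higher after scaling and were not called as deposited, at 0.13, 0.19 and -0.066. With E33 replicate 1 as the only E33 library, 6 of the 30 were lower, beside 3.15% of all genes, under a fit in which that library was assumed to vary like the other stages. The number of all genes called, 2798, fell to 1843 without E33 replicate 1, to 1646 without E33 replicate 3, to 1636 without E40 replicate 1 and to 1727 without E40 replicate 3.

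Between E40 and E95, 15 of the 30 were lower and 3 higher after scaling, against 18.4% and 19.2% of all genes, or 37.7% called. As deposited 5 were lower and 0 higher, against 3.76% and 1.80% of all genes, or 5.56% called. Rescaled without the 2 most abundant genes, 17 were lower and 1 higher, beside 47.3% and 7.47% of all genes. These comparisons share libraries with those against E33 and are not independent of them. DCX had the largest fall among the 30, with a difference of -3.002 (SE 0.13, limma adjusted p 1.19e-09). Its scaled TPM was 5.55, 6.04 and 5.29 at E33 and ran from 7.97 to 11.7 in the E40, 10.2 to 12.6 in the E50 and 6.96 to 8.17 in the E60 libraries. It then lay between 1.06 and 1.76 at E70 and between 0.308 and 0.472 at E95. After scaling, DCX thus stayed above its E33 range until E60. The means of all 7 genes of the set were lower at E40 than at E33, but the set was chosen for its early level. DPYSL5 (-1.79), UCHL1 (-1.49), MAP1B (-1.31) and TUBB2B (-1.21) followed in size.

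**Figure D3:**
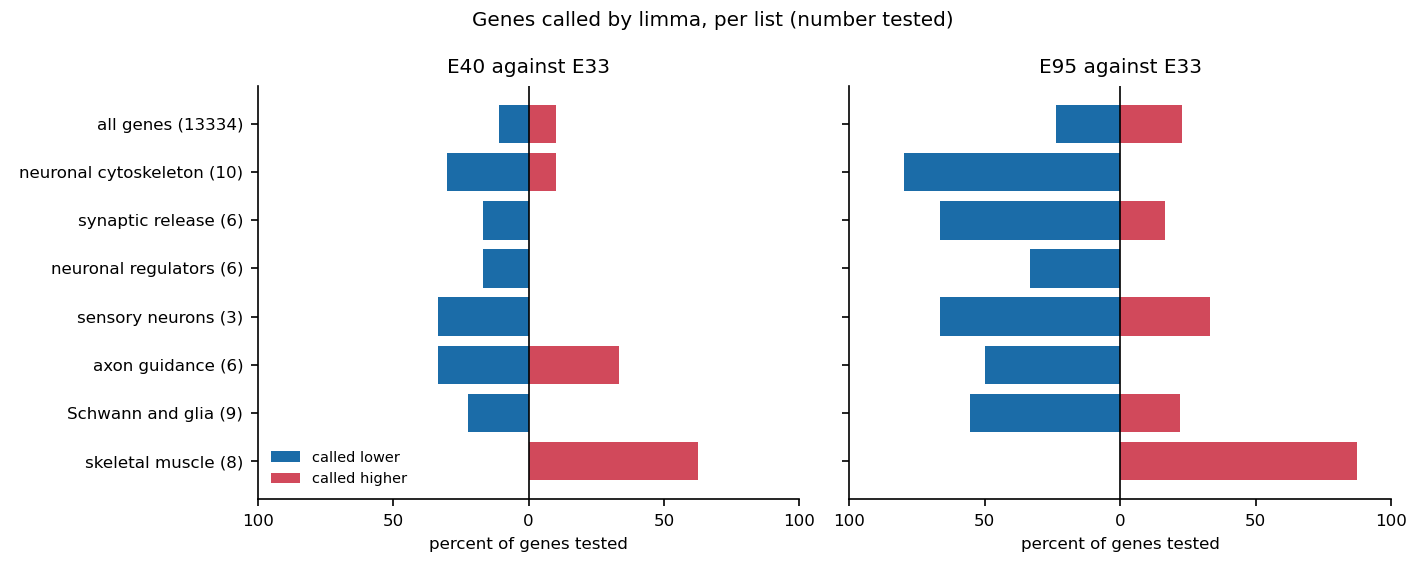
Percent of the genes tested in each list (number tested in brackets) that limma called lower (left, blue) or higher (right, red) after scaling at an adjusted p under 0.05, for E40 against E33 and E95 against E33, with all 13334 genes on top. The neuronal cytoskeleton has 8 of 10 genes lower at E95, and skeletal muscle has 7 of 8 higher.

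Schwann cells, which wrap the axons, gave a mixed picture. Of 9 glial genes tested for E95 against E33, 5 were called lower and 2 higher after scaling, and 5 lower and 1 higher as deposited, beside the same shares of all genes as above. The difference was -1.92 for ERBB3, the neuregulin receptor of Schwann cells (SE 0.12, limma adjusted p 1.68e-08), -1.80 for NGFR, the low-affinity neurotrophin receptor, and -1.11 for GFRA3. FABP7, at -2.40, averaged under 1 TPM outside E33 and E95, and of the 8 glial genes above that average 4 were lower and 2 higher. SOX10, the factor that defines the lineage, was lower at -0.33 (limma adjusted p 0.0487), a call that was lost in 11 of the 18 fits that left out a library. Of those called higher, FOXD3, a neural crest factor, was at 1.80 after scaling and was not called as deposited at 0.60. The myelin gene MBP reached at most 1.07 scaled TPM in any library.

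**Figure D4:**
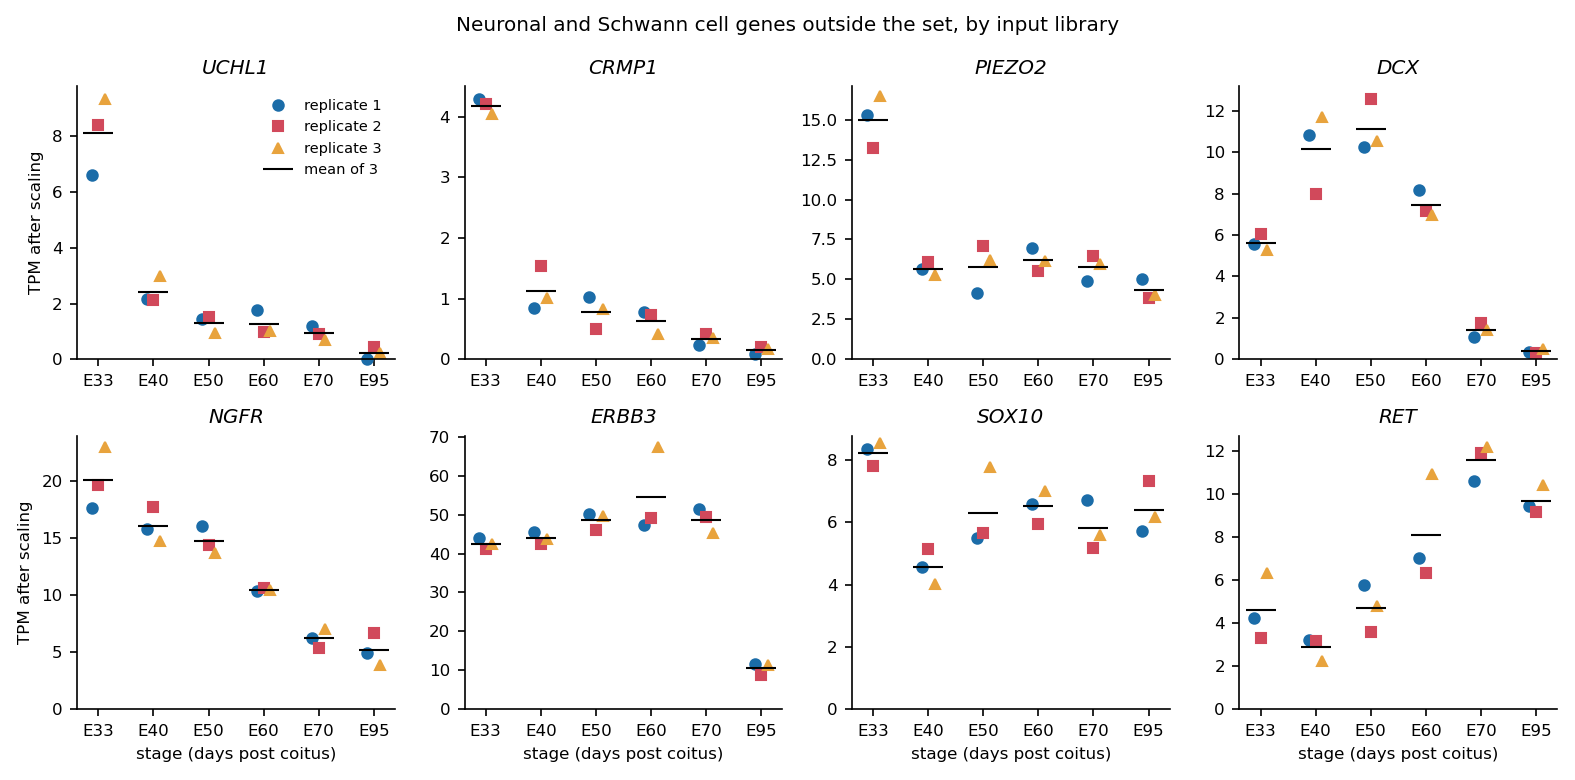
Scaled TPM (vertical axis, linear, its own range in each panel) of 8 neuronal and Schwann cell genes in the 18 input libraries by stage; symbols are replicates and the black bar is the mean of 3. UCHL1, CRMP1 and PIEZO2 are highest at E33, DCX stays high until E60, and ERBB3 is at 41.2 to 67.3 up to E70 and at 8.89 to 11.5 at E95.

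Relatives of the set, in part with wider expression, were compared as well. Among those tested, TUBB2B and STMN3 were also in the neuronal cytoskeleton list, so the counts of both lists share them. Of 9 such filament, tubulin and stathmin genes tested for E95 against E33, 6 were called lower and 1 higher after scaling, beside 23.8% and 22.8% of all genes, with a median of -0.72. As deposited 8 were lower and 1 higher, beside 45.8% and 2.64%. The intermediate filament genes VIM (-1.63) and NES (-0.72), and STMN1 (-1.67), which marks dividing cells, were lower, and DES, the filament of muscle, was higher by 3.33. For E40 against E33, 1 of the 9 was lower (TUBB6, -0.60) and 1 higher (DES, 0.98) after scaling, and 0 were called as deposited. VIM (-0.15), NES (0.18) and STMN1 (-0.04) were not called in that step.

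Markers of neighbouring tissues also moved with stage. The summed scaled TPM of 8 cartilage genes was 116 to 163 at E33 and 40.4 to 54.0 at E95, and of 7 tested 4 were lower and 2 higher after scaling, beside the same 23.8% and 22.8%, and 5 and 1 as deposited. The cartilage matrix genes COL9A1 (-2.09) and MATN1 (-1.74) and, in the other direction, HAPLN1 (0.77) averaged under 1 TPM outside E33 and E95, and COMP, another cartilage matrix gene, was higher by 3.705. Of 6 genes of blood and vessels tested, HBB, PECAM1, CDH5 and KDR were higher after scaling (1.29 to 2.01), and none of these 4 was called higher as deposited. HBZ, the embryonic globin of red blood cells, was lower at -5.93. Epidermal genes were high in 1 library only, with a sum of 355 scaled TPM in E40 replicate 2 and at most 17.6 elsewhere. The part of such tissues in the levels of the set was not tested.

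The 10 genes most like the set were named by their Pearson correlation with the mean standardised profile of its 6 genes that reached the filter, over the 18 libraries. They were BNC1 (r = 0.967), TMEM132E (0.961), CRMP1 (0.959), PCDH10 (0.958), ZFHX3 (0.957), BOC and CACNA1A (0.956 each), SPECC1 (0.954), and ASTN1 and NYNRIN (0.953 each). All had their highest stage mean at E33, which their choice by likeness to a set chosen for its early level made nearly certain. ZFHX3 went from a scaled mean of 31.5 at E33 to 6.00 at E40 and 3.28 at E95, and BOC from 55.6 to 21.3 and 11.6. The 18 libraries share their stages, so the number of independent points is smaller.

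Peaks of m6A, with their fold enrichment and p as the authors' peak caller gave them, came as 1 list per stage and per PK15 preparation and so had no replicates. Of the 6 genes matched by symbol, 4 (NEFL, STMN2, GAP43 and TUBB3) had a peak in at least 1 of the 8 lists. NEFM was matched through its peaks and is left out of these counts. At E33 all 6 averaged 1 TPM or more, and 3 of them (NEFL, STMN2 and GAP43) had a peak, beside 33.5% of all genes with such an average in that stage. At E40 only NEFL and STMN2 of the 6 reached that level, and NEFL had a peak, beside 22.9%. From E50 on only NEFL did. It had a peak at E50 and E95, beside 32.6% and 37.5%, and none at E60 and E70, beside 31.7% and 35.6%, which for a single gene gives no share to compare. INA and PRPH had none in any list.

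NEFL had 3 peaks at E33. The one at the end of the coding sequence, chr14:8993080-8993408, had a fold enrichment of 3.37 and a p of 1e-107, and 4.62% of the peaks of the list had a smaller p. It covered the 143 coding bases of exon 4, 40 bases of the 3′ UTR and 146 bases that RefSeq gives as intron. The others lay in exons 1 and 2 (fold 2.62) and in exon 1 (fold 2.24), both in coding sequence. All 3 folds were below the median of the E33 list, 3.51.

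The peak at the end of the NEFL coding sequence came back in later lists. It was at chr14:8993109-8993378 at E40 (fold 5.31, above the list median of 4.23), at chr14:8993169-8993319 at E50 (fold 3.04) and at chr14:8993169-8993289 at E95 (fold 12.9). These 4 peaks share 121 bases that start 49 bases upstream of the end of the coding sequence, 94 of them coding and 27 in the RefSeq intron, as the sequence printed above shows. The E95 peak had the highest fold and the weakest p, 6.8e-05, and 97.3% of the peaks of its list had a smaller one. NEFL was at 1.92 to 2.60 TPM in the E95 input libraries. No NEFL peak was listed at E60 or E70, where it was at 2.79 to 19.8 TPM, nor in PK15.

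**Figure D5:**
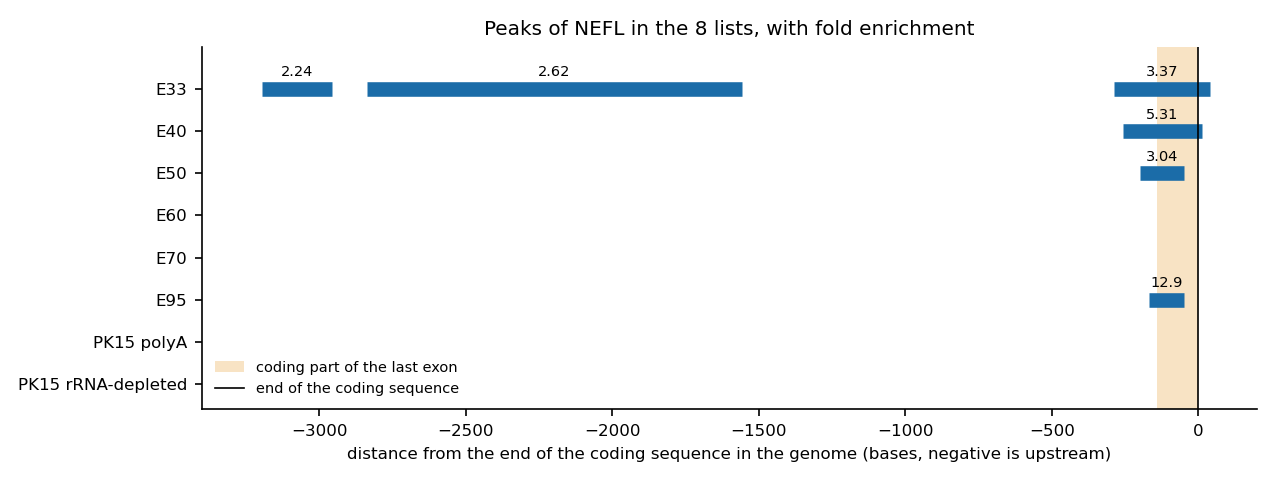
Peaks of NEFL in the 8 lists (rows) by distance in bases from the end of its coding sequence along the genome, with the fold enrichment above each bar; the shaded band is the coding part of the last exon, and the longest E33 bar spans an intron. Peaks of E33, E40, E50 and E95 share 121 bases that start 49 bases upstream of the end of the coding sequence. The rows of E60, E70 and both PK15 lists are empty.

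The remaining genes of the set had peaks at E33 or in PK15 only. NEFM had 2 peaks at E33 (folds 2.93 and 4.28), both in the coding sequence of exon 3. STMN2 had a peak of 60 exonic bases across the junction of exons 3 and 4, with a fold of 1.62, which ranked 8569 of 8685. GAP43 had peaks with folds of 2.49 and 2.88, which together reached from exon 1 to exon 3. TUBB3, listed at or below 9.37 TPM in muscle and with no muscle peak, had 2 peaks in the polyA list of PK15 (fold 10.8 at chr6:169938-171276 and 3.56) and 1 in the rRNA-depleted list (fold 2.89).

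Purines made up a large part of some peaks of the set. The longer NEFM peak was 74.5% A or G, while the median of the E33 list was 55.3%. The NEFL peaks were 60.0% to 62.6% purine at E33. In that list the STMN2 peak was 68.3% purine and the GAP43 peaks 61.9% and 65.8%, so a raised share was not particular to the neurofilament genes. The NEFL peak of E95 was 73.6% purine, higher than 98.3% of its list, whose median was 55.6%. In DRACH matches the 3 NEFL peaks of E33 had 1.52, 2.96 and 0.833 per 100 bases and the longer NEFM peak 0.370, against a list median of 2.20, and 95.3% of the E33 peaks held at least 1. A match or its absence is a description of letters and says nothing of where the methyl group lies.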

How the data were processed

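Levels were read in the 18 input libraries of muscle and peaks in all 8 lists. The deposited TPM per Ensembl gene and the peak lists, with a fold enrichment and a p-value per peak, were made by the authors. The submitters' processing notes name Trimmomatic, HISAT2 and Sscrofa11.1, and the quantifier, the peak caller and any pooling are not given in the sources used here. TPM was divided by median-ratio factors, and limma 3.58.1 in R 4.3.3 (lmFit, eBayes with trend, two-sided, Benjamini-Hochberg over the 13334 genes averaging 1 TPM or more) compared stage means of log2(scaled TPM + 1) over all 18 libraries. A gene was called at an adjusted p under 0.05. Sequences were read with pysam 0.24.0. The fit was tested on simulated data.

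The text names the 8 genes of the set, listed genes called or needed to account for a list, and the 10 genes most like the set. The members and all lists were chosen with earlier results of these data known. Same-numbered libraries did not deviate together (mean correlation of deviations 0.0069 over 45 pairs). Some genes and sequences are not reported here.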

Additional observations from a re-analysis of the deposited data

How the results depend on the processing

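Genes called for E40 against E33 numbered 649 with TPM as deposited and 1762 with only the libraries of these stages, and for E95 against E40 742 as deposited. Neuronal genes lower numbered 5 as deposited for E95 against E40. With a filter of 0.1 TPM and with no filter, they numbered 38 of 60 and 42 of 69 for E95 against E33. The shares of all genes lower were 21.4% and 19.5%. For E40 against E33, neuronal genes lower numbered 20 and 23, beside 9.67% and 8.64% of all genes. These settings test more genes, and some of those added, such as TLX3 and NEUROD1, were at 0 in every library after E33. Such a gene could only be lower or not called. The counts were not restricted to genes also expressed outside the stages compared, so nothing further is read from them. The median difference of the set, E95 minus E33, was -3.66 as deposited, -3.42 rescaled without the 2 most abundant genes and -4.16 with a pseudocount of 0.1. Of the 6 genes of the set matched by symbol, 2 had a peak above the median fold of its list. With E33 replicates 2 and 3 left out, an alternative chosen after seeing the data, 870 genes were called for E40 and 4050 for E95 against E33, and the set's median was -1.88. The sign turned as deposited for NRCAM (-0.066, E40 against E33), RET (-0.13) and VAMP2 (-0.59, both E95 against E33), and for SOX10, log2 change, E95 against E40, it turned to -0.059 as deposited and to -0.078 rescaled without the 2 most abundant genes. The cause was not tested.

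Leaving out each library in turn gave 1636 to 3270 genes called for E40 against E33, 5356 to 6379 for E95 against E33 and 4263 to 5229 for E95 against E40. Neuronal genes lower ranged from 8 to 9, 17 to 20 and 13 to 15 in these comparisons, Schwann cell genes lower at E95 from 4 to 5, and the set's median from -2.95 to -2.20. The replicate numbers do not pair the samples. With the replicate block, 2556, 6113 and 4914 genes were called in the same order. Depth is unknown, and levels under 1 TPM, where INA, TUBB3 and GAP43 lie after E33, have no counting error attached.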
